A study of Mus musculus with 24 samples.

Results

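TRiC, also called CCT, is the chaperonin of the cytosol, and its 8 core subunits are encoded by Tcp1 (the alpha subunit), Cct2 (beta), Cct3 (gamma), Cct4 (delta), Cct5 (epsilon), Cct6a (zeta), Cct7 (eta) and Cct8 (theta). These 8 genes were followed among the 14318 genes that could be tested on the arrays. Each gene was read by the brightest, over all 24 arrays, of the probe sets that carry its symbol and no other. All 8 passed the filter on dim probe sets, as did 23 of the 25 probe sets that name a single one of these genes.

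The subunits are paralogues that assemble into stacked rings, in which each kind of subunit has its own fixed place. ATP binding and hydrolysis close a lid over the ring cavity, and newly made proteins that cannot fold alone fold inside. Actin and tubulin are its best known clients, with several cell-cycle and signalling proteins made of WD40 repeats among the others. In a resting B cell little protein is made, and binding of the antigen receptor starts growth and entry into the cell cycle.

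RNA came from splenic B cells of C57BL/6 mice, 6 to 8 weeks old by the labels, and was hybridised to Affymetrix expression arrays, 1 array per sample. The genotypes were KO, in which Nfatc1 carried loxP sites around exon 3 and was crossed with mb1-cre, which places Cre recombinase under the control of Cd79a and so deletes in the B lineage from early development on, and WT, whose own Nfatc1 and Cre alleles the labels do not give. Cells of both genotypes were stimulated with anti-IgM, which binds the antigen receptor, for 0, 3, 8 or 16 h and enriched for B cells on beads. Each of the 8 groups held 3 samples named as biological replicates, and nothing in the labels says which mice they came from.

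The deposited values are log2 MAS5 signals, and array medians lay between 6.21 and 6.98. B cell identity was borne out by Cd79a, Cd79b, Ms4a1, Pax5 and Blk, which were above the filter level on all 24 arrays. NFATc1 deletion was not visible as a loss of Nfatc1 signal: the brightest Nfatc1 probe set was higher in KO by 0.56 on the log2 scale over the 4 times (SE 0.06, limma adjusted p = 1.12e-05), and where its probes lie relative to exon 3 is not known here. Rcan1, a known target of NFAT, was lower in KO by 1.70 at 16 h (difference -1.70, SE 0.18, adjusted p = 3.03e-05). At 0, 3 and 8 h its differences were 0.11, -0.14 and -0.70, none of them called. At each time the WT array numbered 2 had the expression of male cells (Xist 6.17 to 6.62 against 13.3 to 14.5 on the other 20 arrays), so 4 arrays stand apart from their groups in sex. None of the 48 rises described next depended on them.

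All 8 subunit genes rose after stimulation, at every time and in both genotypes. In WT cells the rises at 16 h ran from 2.01-fold for Cct2 to 3.05-fold for Cct6a, with a median of 1.28 on the log2 scale against 0.05 over all genes. In KO cells they ran from 1.90-fold to 2.86-fold, again for Cct2 and Cct6a, with a median of 1.18 against 0.08. All 48 comparisons with 0 h were called by limma (adjusted p from 4.2e-12 to 3.35e-05), and in all 48 every stimulated array lay above every array at 0 h. The stimulated groups of a genotype share its 0 h arrays, so the comparisons are not independent of each other.

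**Figure D1:**
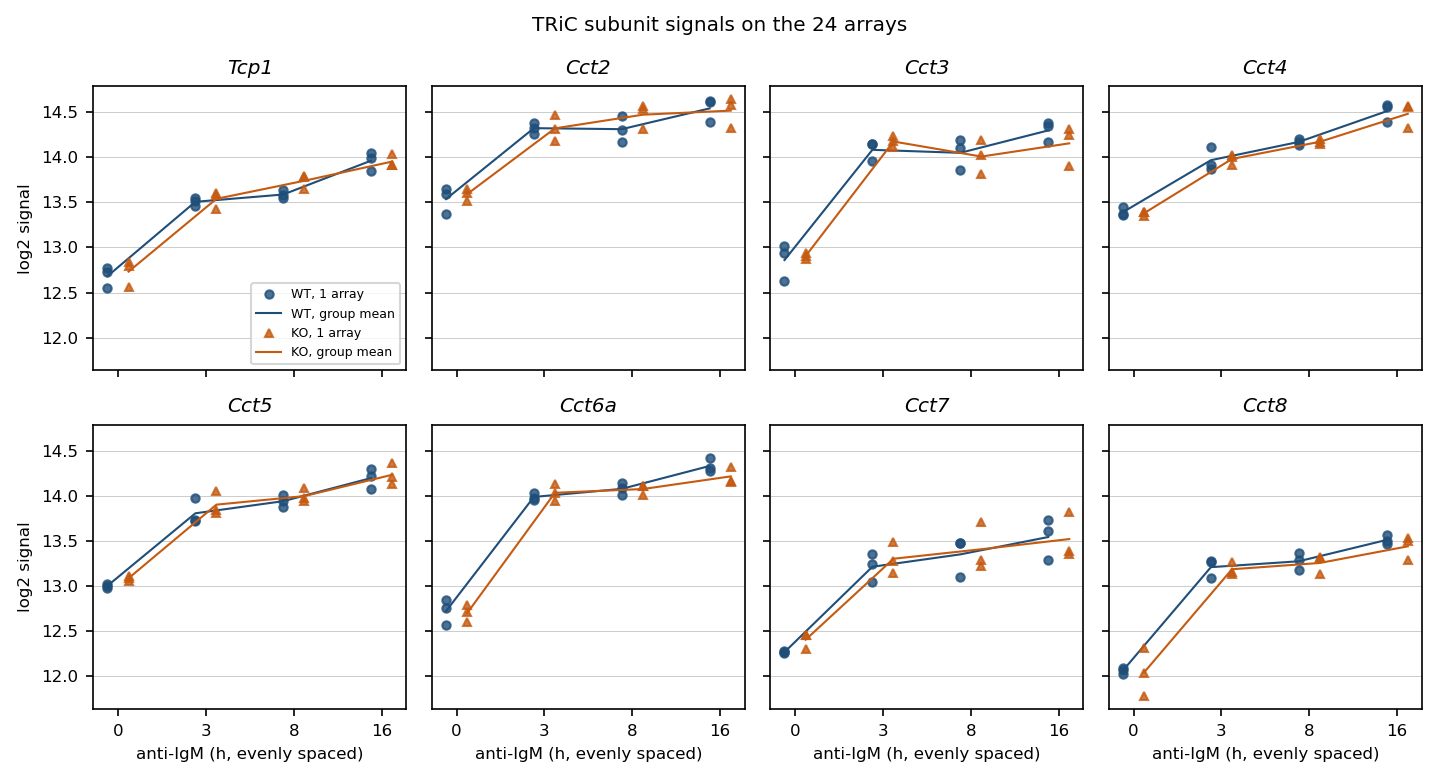
Log2 signal of each subunit gene (vertical axis) on the 24 arrays against hours of anti-IgM (horizontal axis, times evenly spaced and not to scale). Circles are WT arrays, triangles KO arrays, 3 per group, and lines join group means; in every panel the points at 3, 8 and 16 h lie above those at 0 h, and the genotypes overlap in most groups.

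These counts stand against a wide response of the whole array. In WT cells 17.0%, 17.7% and 20.9% of genes were called higher at 3, 8 and 16 h, and 20.5%, 22.0% and 25.6% had all 3 arrays above the 3 arrays at 0 h. In KO cells 16.6%, 17.3% and 19.4% of genes were called higher at the same times, and 20.2%, 21.3% and 23.1% did not overlap with 0 h in the upward direction. Many genes fell as well: of 14318, limma called 3047, 2246 and 2643 lower at 3, 8 and 16 h in WT, and 3104, 2068 and 2354 in KO. The subunit genes were not at the far end of that response: at 16 h in WT cells each rose by more than 85.0% to 94.4% of the genes tested. Since the arrays measure RNA relative to the total on each array, a larger total per cell after stimulation would not show.

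Cct6a, the zeta subunit, rose most when each gene was read by its brightest probe set. In WT cells its log2 signal was 12.76, 12.85 and 12.57 before stimulation, 14.04, 13.95 and 13.98 after 3 h, 14.08, 14.14 and 14.01 after 8 h and 14.31, 14.42 and 14.27 after 16 h. In KO cells it was 12.60, 12.79 and 12.71 before stimulation, 14.13, 14.03 and 13.94 after 3 h, 14.11, 14.11 and 14.01 after 8 h and 14.32, 14.17 and 14.16 after 16 h. The arrays at 0 h stood apart from all others, while those at 3 and 8 h overlapped. Its rise was 1.27 at 3 h (SE 0.09, 2.40-fold) and 1.61 at 16 h (3.05-fold, 95% interval 2.66 to 3.49) in WT, and 1.33 and 1.52 in KO.

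Cct3, the gamma subunit, had the largest share of its rise at 3 h. Its WT signal was 12.63, 13.02 and 12.94 before stimulation, 14.14, 14.15 and 13.96 after 3 h, 14.10, 14.19 and 13.86 after 8 h and 14.38, 14.34 and 14.17 after 16 h. Its KO signal was 12.87, 12.90 and 12.93 before stimulation, 14.23, 14.18 and 14.11 after 3 h, 14.03, 14.19 and 13.81 after 8 h and 14.31, 14.24 and 13.91 after 16 h. In KO cells the group mean of this brightest probe set was highest at 3 h, and in WT cells 85.0% of the change seen at 16 h was reached by 3 h. The 3 other bright Cct3 probe sets had KO means of 14.02, 13.49 and 12.71 at 3 h. Their KO means were 13.93, 13.44 and 12.74 at 8 h and 14.09, 13.52 and 12.69 at 16 h, so none of these was highest at 3 h. The rise at 3 h was 1.22 in WT (SE 0.13) and 1.27 in KO.

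Cct8, the theta subunit, rose by 1.14 at 3 h in both genotypes (SE 0.11) and by 1.45 in WT and 1.40 in KO at 16 h. The WT arrays read 12.03, 12.08 and 12.10 before stimulation, 13.27, 13.09 and 13.28 after 3 h, 13.18, 13.29 and 13.37 after 8 h and 13.47, 13.57 and 13.50 after 16 h. The KO arrays read 11.78, 12.04 and 12.31 at 0 h, a wider spread than in WT, then 13.16, 13.14 and 13.27 after 3 h, 13.32, 13.14 and 13.31 after 8 h, and 13.50, 13.29 and 13.53 after 16 h.

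Cct4, the delta subunit, rose least at 3 h and went on rising. Its WT signal was 13.36, 13.37 and 13.45 before stimulation, 14.11, 13.87 and 13.92 after 3 h, 14.20, 14.14 and 14.17 after 8 h and 14.58, 14.56 and 14.39 after 16 h. The KO arrays followed the same steps, with 13.39, 13.35 and 13.39 before stimulation, 14.03, 13.91 and 14.01 after 3 h, 14.14, 14.17 and 14.20 after 8 h and 14.56, 14.55 and 14.33 after 16 h. In both genotypes the 4 times formed 4 groups that did not overlap. Only 51.4% of the WT change at 16 h, and 54.6% of the KO change, was reached at 3 h, the smallest shares among the 8 genes.

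Cct2, the beta subunit, had the smallest rise at 16 h, 1.00 in WT (SE 0.12, 95% interval of the fold 1.70 to 2.37) and 0.93 in KO. WT arrays read 13.60, 13.64 and 13.37 at 0 h and 14.62, 14.62 and 14.39 at 16 h, and KO arrays 13.51, 13.65 and 13.61 at 0 h and 14.65, 14.58 and 14.32 at 16 h. At 3 and 8 h its 12 arrays lay between 14.17 and 14.56, with no gap between the times. Cct5, the epsilon subunit, read 12.98 to 13.02 in WT at 0 h and 14.22, 14.30 and 14.08 at 16 h, a rise of 1.19 (SE 0.10). Its KO arrays read 13.11, 13.09 and 13.06 at 0 h and 14.36, 14.21 and 14.13 at 16 h, a rise of 1.15.

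Tcp1, the alpha subunit and the gene first described in the family, rose by 1.28 at 16 h in WT (SE 0.10), from 12.72, 12.55 and 12.77 to 14.05, 13.99 and 13.85. In KO it rose by 1.22, from 12.84, 12.56 and 12.79 to 14.03, 13.91 and 13.91. Cct7, the eta subunit, had the widest spread between replicates, up to an SD of 0.27 in KO at 8 h where its arrays read 13.72, 13.22 and 13.29. It rose by 1.27 in WT (SE 0.15), from 12.27, 12.28 and 12.26 to 13.74, 13.61 and 13.28, and by 1.12 in KO, from 12.46, 12.46 and 12.30 to 13.82, 13.39 and 13.35. Over the 8 genes and 8 groups the median SD was 0.10 on the log2 scale, far below the rises.

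**Figure D2:**
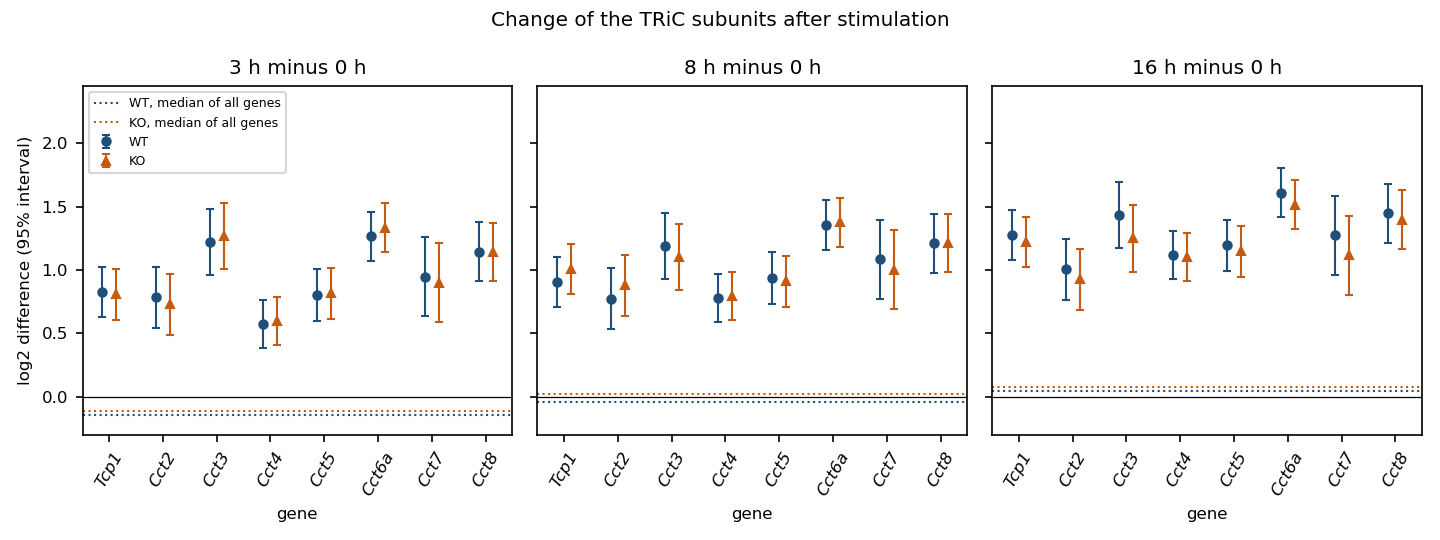
Log2 difference from 0 h (vertical axis) of each gene (horizontal axis) at 3, 8 and 16 h, with 95% intervals from limma, 3 arrays per group; circles are WT, triangles KO, and dotted lines the median of all genes tested. Every interval lies above 0, from a lowest bound of 0.39 for Cct4 at 3 h in WT, and Cct6a has the highest value in each panel.

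Most of the rise was complete by 3 h. Between 3 and 8 h no subunit gene was called by limma in either genotype, with differences of -0.03 to 0.20 in WT and -0.17 to 0.20 in KO (unadjusted p under 0.05 for 1 gene in WT and 2 in KO). In the same step 10.3% of all genes were called higher in WT and 13.2% in KO. Between 8 and 16 h all 8 differences were positive in both genotypes, with medians of 0.25 in WT and 0.17 in KO. Tcp1 (0.38, adjusted p = 0.0143) and Cct4 (0.34, adjusted p = 0.0215) were called in WT, where 3.83% of all genes were called higher. In KO 2.40% of genes and no subunit gene were called (unadjusted p under 0.05 for 3), and Cct4 came nearest (0.31, adjusted p = 0.0532). The WT count of 2 ran from 0 to 4 over the alternatives and the KO count from 0 to 1. In WT it fell to 0 without the first or the second WT array at 16 h, to 1 without any single WT array at 8 h, and to 0 without the 4 male-type arrays.

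The signals of the subunit genes did not rise equally. For each gene and time the change from 0 h was set against the mean change of the other 7 in an exact two-sided permutation test over arrays, 6 against 6 with both genotypes together, and p-values were adjusted over the 24 tests. Of these, 5 were called above and 9 below the other subunits, and with 924 arrangements the smallest possible p is 0.00216. The differences at a time sum to 0 by construction, and all 3 times share the 0 h arrays, so the calls are not independent of each other. Cct6a exceeded the others by 0.40, 0.38 and 0.35 at the 3 times (adjusted p = 0.00649 each). Cct3 exceeded them by 0.34 at 3 h (adjusted p = 0.00649), and its excess was 0.13 and 0.10 later (adjusted p = 0.208 and 0.227). Cct8 exceeded them by 0.22 at 3 h with an adjusted p of 0.0482, a call lost when any of 13 single arrays was left out and under 4 of the other settings (adjusted p from 0.052 to 0.331).

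Cct4, Cct2 and Cct5 lagged at all 3 times. In both genotypes these genes also had the highest mean signals of the 8 at 0 h. The other genes were dimmer at 0 h, both Cct3, Cct6a and Cct8, which were called above the others at 3 h, and Tcp1 and Cct7, which were not. Whether bright signals were compressed on the arrays, which would make their log2 rises smaller, was not tested. Cct4 trailed by 0.41 at 3 h (difference -0.41, adjusted p = 0.00649), and the gap narrowed to -0.28 at 8 h and -0.16 at 16 h (adjusted p = 0.00649 and 0.0142). Cct2 went the other way, from -0.22 and -0.23 to -0.33 (adjusted p = 0.0142, 0.0173 and 0.00649). Its 8 h call was lost without the male-type arrays (-0.22, adjusted p = 0.0586). Cct5 trailed by less, at -0.16, -0.12 and -0.09 (adjusted p = 0.0115, 0.00649 and 0.044), and the last of these was lost without any of 7 single arrays (-0.10 to -0.07, adjusted p from 0.0557 to 0.0928) and with the mean of all kept probe sets per gene (-0.03, adjusted p = 0.567). Tcp1 and Cct7 were not called at any time, with differences between -0.15 and 0.01, though Tcp1 at 3 h (-0.15, adjusted p = 0.0942) was called with quantile normalization (-0.18, adjusted p = 0.0428), against the median of the other 7 (-0.24, adjusted p = 0.026) and without the second WT array at 0 h (-0.19, adjusted p = 0.0482).

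**Figure D3:**
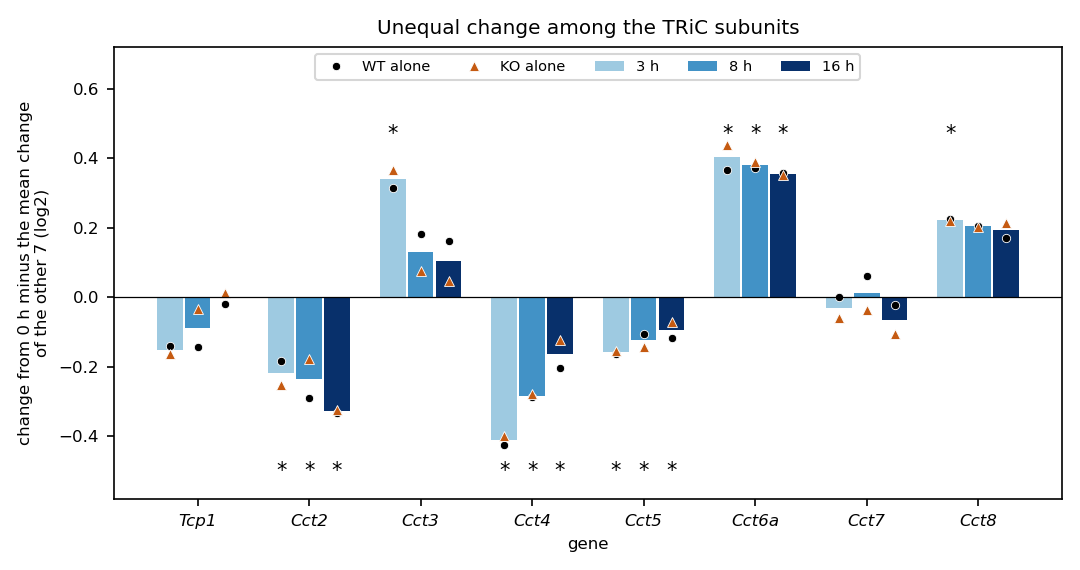
Change of each gene from 0 h minus the mean change of the other 7 (vertical axis, log2) at 3, 8 and 16 h; bars are both genotypes together, 6 arrays per time, circles WT alone and triangles KO alone. Stars mark an adjusted p under 0.05 over the 24 exact permutation tests: Cct6a lies above the others at all 3 times, Cct3 and Cct8 at 3 h, and Cct2, Cct4 and Cct5 lie below at all 3.

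In the assembled ring the products of Cct3, Cct6a and Cct8 are known to be neighbours and those of Cct5, Cct2 and Cct4 to sit together across from them, the former side binding ATP weakly and the latter strongly. The genes called above the others at 3 h lie on the former side and those called below on the latter. This arrangement was looked at after the values were seen and was not tested. It counts the uncertain call of Cct8 and leaves out Tcp1, close to Cct5 in value. It also leaves out Cct7, which was near the others at 3 h (-0.03, exact permutation test, adjusted p = 0.706). The other probe sets of these genes also rose where they were bright, by amounts that differed within a gene. The dimmer Cct6a probe set rose by 1.79 at 16 h in WT, 3 other bright Cct3 probe sets by 1.44 to 1.58, and 2 other bright Cct2 probe sets by 1.00 and 1.04. At 3 h in WT these 3 Cct3 probe sets rose by 1.23 to 1.51 and the Cct6a probe sets by 1.27 and 1.47. Which of Cct3 and Cct6a rose most at 3 h thus depended on the probe set. For Cct4, 2 other bright probe sets rose by 0.99 and 1.31, against 1.12 for the brightest. The gap of Cct4 to the other subunits at 16 h, -0.16 with both genotypes together, is to be read beside these values. Of the 23 kept probe sets, 19 were called higher at each time in each genotype and 4 were not called. In WT these 4 were 3 dim Cct4 probe sets and 1 dim Cct3 probe set, all with means under 10. Probe sets whose names end in _x_at may bind related transcripts, and the brightest ones of Cct2, Cct3 and Cct4 are of that kind.

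Upstream sequence is shown for the 3 genes that exceeded the others at 3 h and for Cct2, the gene with the smallest rise at 16 h. Each run is the 250 bases before the RefSeq transcript start in assembly GRCm38.p6, 5′ to 3′ on the gene's strand. Capitals mark CCAAT (bound by NF-Y), GGGCGG (bound by Sp1) and CCGGAAG (bound by ETS factors) on either strand, and no matches overlapped.
Cct6a, chr5:129787106-129787355, plus strand: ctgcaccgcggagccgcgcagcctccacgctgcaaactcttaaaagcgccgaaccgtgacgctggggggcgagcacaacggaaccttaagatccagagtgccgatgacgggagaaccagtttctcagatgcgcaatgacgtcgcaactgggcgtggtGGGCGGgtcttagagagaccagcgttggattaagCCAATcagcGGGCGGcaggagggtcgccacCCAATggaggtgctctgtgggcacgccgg
Cct3, chr3:88296885-88297134, plus strand: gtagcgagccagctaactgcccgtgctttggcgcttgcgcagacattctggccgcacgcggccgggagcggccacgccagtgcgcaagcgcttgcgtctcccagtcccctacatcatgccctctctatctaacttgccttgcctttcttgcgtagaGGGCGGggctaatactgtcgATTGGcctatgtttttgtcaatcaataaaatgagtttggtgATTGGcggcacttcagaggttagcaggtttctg
Cct8, chr16:87495870-87496119, minus strand: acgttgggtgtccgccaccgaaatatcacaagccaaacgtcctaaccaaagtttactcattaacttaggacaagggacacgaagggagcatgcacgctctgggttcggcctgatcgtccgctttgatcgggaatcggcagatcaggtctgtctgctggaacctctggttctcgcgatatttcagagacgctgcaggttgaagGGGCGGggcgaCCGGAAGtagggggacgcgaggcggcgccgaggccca
Cct2, chr10:117063853-117064102, minus strand: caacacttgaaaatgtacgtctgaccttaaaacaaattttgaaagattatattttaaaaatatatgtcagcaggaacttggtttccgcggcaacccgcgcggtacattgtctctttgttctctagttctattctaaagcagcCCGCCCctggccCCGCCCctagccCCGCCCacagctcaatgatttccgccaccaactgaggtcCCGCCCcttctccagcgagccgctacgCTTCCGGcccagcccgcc

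RefSeq promoter windows were at hand for 7 of the 8 genes, 9 windows in all because Cct2 and Cct5 have 2 each; Cct4 had none. GGGCGG was found for all 7 genes (8 of 9 windows), against 32.7% of the 32851 windows of all genes. CCAAT was found for Cct3, Cct6a, Cct7 and Tcp1 (33.9% of all windows) and CCGGAAG for Cct2 and Cct8 (6.91%). CACGTG, the E-box bound by Myc, was in none of the 9 windows and in 6.02% of all. GAANNTTC, part of the heat shock element, was found for Cct2 alone, in its other window (6.69% of all), and GGAAA, the core of NFAT sites, for Cct2, Cct5, Cct7 and Tcp1 (55.6% of all). Both strands were searched, and these matches describe the letters in the windows.

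Genotype had no detectable effect on any subunit gene. KO minus WT, averaged over the 4 times, ran from -0.03 for Cct8 to 0.07 for Cct5, and the 95% intervals of all 8 lay between -0.15 and 0.22, which is 0.902-fold to 1.17-fold. Limma called none of the 8 there, where 1.21% of all genes were called, and none had an unadjusted p under 0.05. For this average the fit took the 4 times of a numbered replicate for separate samples. If equal numbers mark the same mice, which the labels do not say, the averaged intervals are too narrow. That limit applies to every difference averaged over the times. With the number as a random block within genotype, 46 of 14318 genes were called for the average, against 173 without it. At single times the differences ran from -0.14 (Cct3 at 16 h) to 0.16 (Cct2 at 8 h), with no call among the 8 and no unadjusted p under 0.05. The shares of all genes called at 0, 3, 8 and 16 h were 0.0349%, 0.0559%, 0.0978% and 0.615%. The 95% intervals at single times reached from -0.40 to 0.45.

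**Figure D4:**
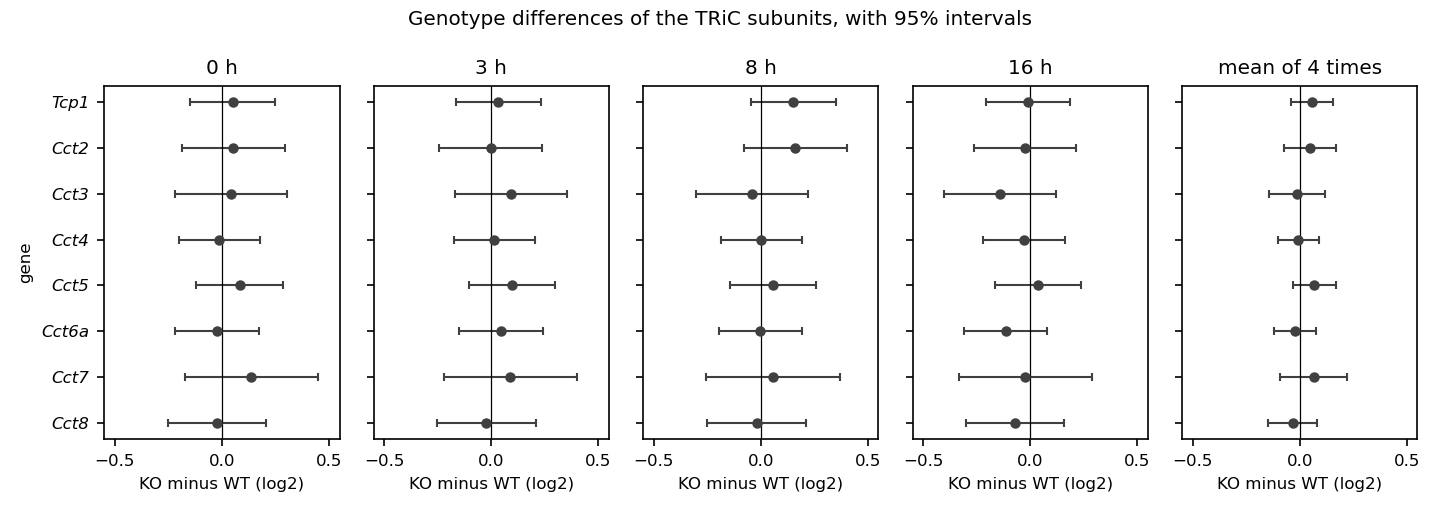
KO minus WT (horizontal axis, log2) for each gene (vertical axis) at 0, 3, 8 and 16 h and averaged over the 4 times, with 95% intervals from limma, 3 arrays per group. Every interval includes 0, and those of the average lie between -0.15 and 0.22. Intervals of the average are too narrow if equal replicate numbers mark the same mice.

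The response itself was compared between the genotypes too. In the change from 0 to 16 h all 8 genes had a smaller rise in KO, by -0.02 for Cct4 to -0.19 for Cct3, with none called and none at an unadjusted p under 0.05 (95% intervals from -0.60 to 0.28). The 8 values share arrays and are not 8 separate observations. In the changes to 3 h and to 8 h the differences ran from -0.06 to 0.07 and from -0.09 to 0.11, likewise without a call and with no unadjusted p under 0.05. Across all genes 0% were called in the change to 3 h, 0% to 8 h and 0.0210% to 16 h, and 0.0140% in an F-test over the 3 changes, which called none of the 8 either. These interactions had SEs of 0.13 to 0.21, and differences in response of the size seen here were not detectable with 3 arrays per group.

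Arrays of one group tended to be high or low for several subunits together. The arrays numbered 3 had a mean over the 8 genes below that of their group at each stimulated time in both genotypes. The third WT array at 16 h was below its group mean for all 8 genes, by 0.12 on average, and the third KO array at 16 h for 7 of 8, by 0.11. Over the 24 arrays the 28 pairs of subunit genes correlated at r = 0.90 to 0.98 (median 0.95), a range that includes the step from 0 h shared by all. Within groups the median r of the deviations was 0.42 (-0.25 to 0.85), with 22 of 28 pairs above 0. All points share the scaling of their array. Cct5 followed the mean of the other 7 most closely (r = 0.99) and Cct4 least (r = 0.95).

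The genes whose profile over the 24 arrays was most like the mean of the 8 subunits were Hspd1, the HSP60 chaperonin of mitochondria (r = 0.99), Ruvbl1, an ATPase of the R2TP chaperone complex (r = 0.99), and Clns1a, Ybx3, Eif1ax, Aprt, Set and Rps27l (r = 0.99 for each). Their rises at 16 h in WT were unequal, from 1.05 for Clns1a to 2.35 for Ybx3, since r compares the shape of a profile and not its size. In all 189 genes had an r above 0.95.

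Genes that hand clients to TRiC or work beside it mostly rose as well; the counts stand against the 17.0% of all genes called higher at 3 h and 20.9% at 16 h in WT, and 19.4% at 16 h in KO. Of the 6 subunits of prefoldin, which delivers actin and tubulin to TRiC, 5 were higher at 16 h in WT (median 0.92) and 3 of 6 at 3 h (median 0.14). Pfdn2 (1.29), Pfdn6 (1.14) and Pfdn4 (1.11) rose most, and Pfdn5 was at -0.15 (adjusted p = 0.623). Of 3 phosducin-like and related cofactors tested, Txndc9 (1.17) and Pdcl3 (0.83) were higher at 16 h, and 1 of 3 was at 3 h. Of 7 members of R2TP and the prefoldin-like complex, 6 were higher at 16 h and 5 at 3 h, led by Ruvbl2 (1.69), Ruvbl1 (1.66) and Uxt (1.35). Counts in KO at 16 h were the same for these 3 lists, 5 of 6, 2 of 3 and 6 of 7.

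Other folding machines gave mixed counts. Among 5 other chaperonin genes, Hspd1 (1.88), Bbs12 (1.86) and Hspe1, the cofactor of Hspd1 (1.23), were higher at 16 h in WT, and 4 of 5 were in KO. Of 10 genes of the cytosolic HSP70 and HSP90 system, 7 were higher at 16 h in both genotypes, with Hspa4 (1.42), Stip1 (0.78) and St13 (0.76) first in WT. At 3 h in WT this list was split, with 3 higher and 3 lower and a median of 0.02, where all 8 TRiC genes were higher. In that comparison 2439 of 14318 genes were called higher and 3047 lower. The heat shock factor Hsf2, the only one of its list tested, was not called at 16 h in WT (1.07, adjusted p = 0.0875). The 14 genes of the proteasome core, another barrel of paralogous subunits, were all higher at 16 h in both genotypes, with medians of 1.34 in WT and 1.25 in KO. In WT 12 of 14 were higher at 3 h, and Psma5 (1.90), Psma7 (1.72) and Psmb3 (1.64) rose most by 16 h.

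Clients of TRiC moved in both directions. Of 9 actin and tubulin genes, 5 were higher and 1 lower at 16 h in WT, and 3 were higher and 3 lower at 3 h. Over all 14318 genes, 2992 were called higher and 2643 lower at 16 h in WT, and 2439 higher and 3047 lower at 3 h. The beta-tubulins Tubb6 (3.68), Tubb2a (1.66) and Tubb5 (1.35) rose by 16 h, Tubb5 after a fall at 3 h (-0.51, adjusted p = 0.00385). Tuba1a fell (-1.39), and the cytoplasmic actins were not called at 16 h (Actb -0.09, adjusted p = 0.76, and Actg1 0.05, adjusted p = 0.826). Of 6 tubulin cofactors, which take tubulin over from TRiC, none was called at 3 h in WT by limma and 4 were higher at 16 h, among them Tbcb (0.96), Arl2 (0.80) and Tbca (0.56). Of 11 other clients, 5 were higher at 16 h in WT and 3 in KO, against 20.9% and 19.4% of all genes, so the KO count is near the background. Cyclin E1, Ccne1, first fell at 3 h (-2.40) and was above its 0 h level at 16 h (1.15), while Gnb1, a G protein beta subunit with WD40 repeats, rose at both (0.62 and 0.88), and Hdac3 was higher at 16 h (0.79). In KO minus WT averaged over the times no gene of these lists was called by limma. Among the cell type markers Jchain, a plasma cell gene, was (1.59, SE 0.19, adjusted p = 3.62e-05). The other measured plasma cell markers, Sdc1 and Prdm1, were not called. By group means Sdc1 was lower in KO at 0, 3 and 8 h and higher at 16 h. Prdm1 was higher at 0 h and lower at 3, 8 and 16 h. At 16 h alone limma called the NK cell marker Nkg7 lower in KO (-2.65, adjusted p = 0.0255). It called the macrophage marker Adgre1 higher (1.18, adjusted p = 0.0191), beside 1 plasma cell marker. The KO mean of Nkg7 at 16 h, 3.96, was below the filter level of every array (lowest 5.375). Of the other NK cell markers, Ncr1, Klrd1 and Prf1 had higher means in KO at 16 h and Gzma a lower one.

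**Figure D5:**
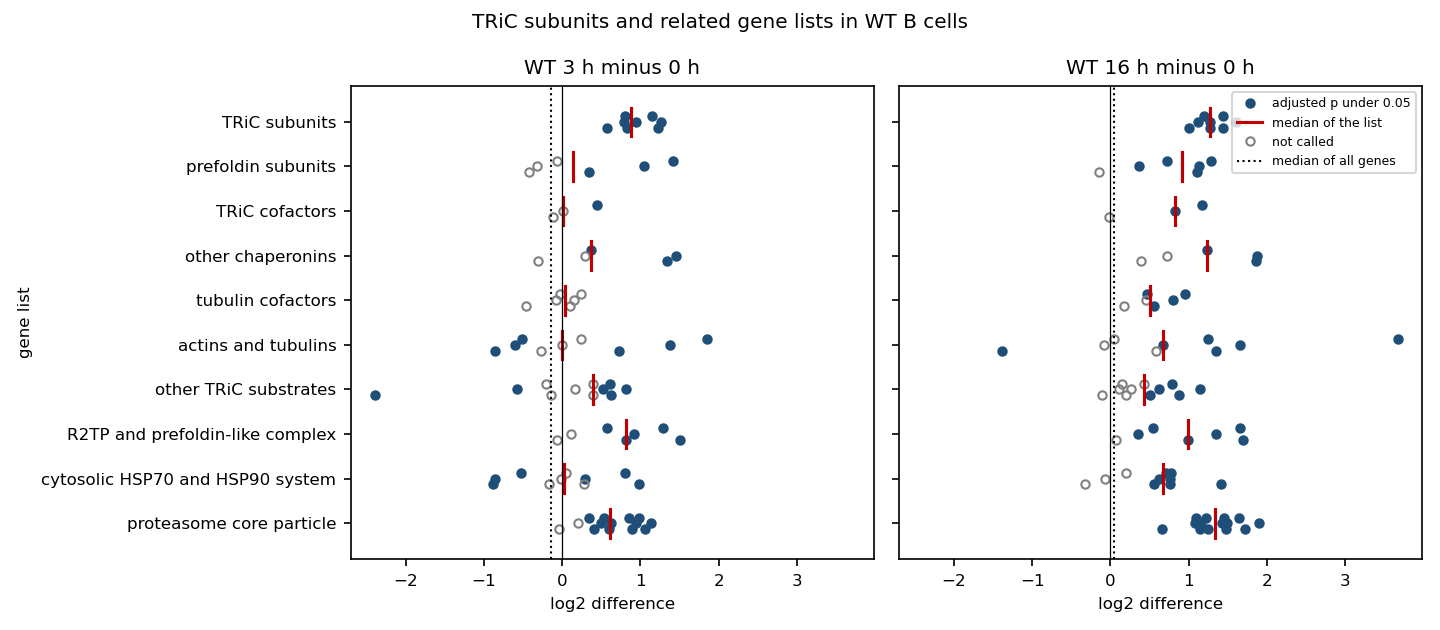
Log2 difference from 0 h in WT (horizontal axis) at 3 h and 16 h for each tested gene of 10 lists (vertical axis); filled points have a limma adjusted p under 0.05, open points do not, red bars are list medians and the dotted line is the median of all genes. At 3 h the TRiC genes are all filled and lie between 0.58 and 1.27, while the prefoldin, tubulin cofactor and HSP70 and HSP90 lists have medians of 0.14, 0.03 and 0.02.

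Other measures moved with stimulation as well. The marker counts at 16 h stand against 2643 of 14318 genes called lower in WT and 2354 in KO. All 5 B cell markers had lower means at 16 h than at 0 h in both genotypes. Their summed signal was 73673 to 86989 in WT at 0 h and 27916 to 34578 at 16 h, and 67621 to 82707 and 30131 to 37041 in KO. At 3 h the mean of Blk was higher than at 0 h (12.5 to 13.3 in WT, 12.6 to 13.3 in KO), while the other B cell markers were lower. Fewer B cells and less of these RNAs per cell cannot be told apart. In WT the summed signal of NK cell markers was 661 to 1319 at 0 h and 240 to 325 at 16 h, and in KO 612 to 2552 and 216 to 458, with 4 of 5 measured markers called lower in each. Neutrophil sums in WT were 1941 to 2944 at 0 h and 778 to 905 at 16 h (2 of 5 called lower), with a median change of -1.34, and in KO 191 to 1759 and 474 to 3149 (0 of 5 called), with a median change of 0.40. In the limma test of the difference between these changes, 0 of the 5 neutrophil markers were called. Plasma cell sums were 2549 to 3602 and 681 to 1276 in WT (2 of 3 called lower), and 4362 to 7611 and 1583 to 3300 in KO (1 of 3). Erythroid sums were 149 to 275 and 25.1 to 75.8 in WT, and 191 to 286 and 87.2 to 191 in KO, with 1 of 2 markers called lower in each.

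Some dendritic cell markers were called higher at 3 h, where 17.0% of all genes were called higher in WT and 16.6% in KO. Siglech and Xcr1 of this list had lower means at 3 h than at 0 h in both genotypes. Called lower at 3 h were 3047 of 14318 genes in WT and 3104 in KO. The WT sums were 253 to 289 at 0 h and 416 to 632 at 3 h (2 of 4 called higher), with no overlap, and the KO sums 265 to 486 and 437 to 689 (1 of 4), with overlap. By 16 h they were 260 to 426 in WT (1 of 4 called higher) and 221 to 362 in KO (1 of 4 higher and 1 lower). Macrophage sums in WT were 4325 to 11119 at 0 h, 1422 to 5445 at 3 h (1 of 5 called lower) and 2032 to 4358 at 16 h (1 of 5 higher and 1 lower). In KO they were 4146 to 8169 before stimulation, 1741 to 2777 after 3 h (1 of 5 called lower) and 3158 to 9437 after 16 h (1 of 5 called higher). No T cell marker was called in these comparisons, and Cd3e, Cd3d and Cd3g were near or below the filter level. The log2 ratio of 3′ to 5′ control probe sets, a measure of RNA integrity and labelling, had means for Actb of 0.47 in WT at 0 h and 0.77 at 16 h, with no overlap of arrays, and of 0.49 and 0.70 in KO, with overlap. For Gapdh it was -0.65 and -0.35 in WT, with no overlap of arrays, and -0.45 and -0.36 in KO, with overlap. The part of cell composition and RNA quality in the rises of the subunit genes was not tested.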

How the data were processed

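RNA of 24 samples was measured on 1 array each. Per the submitters' processing notes the authors used MAS5, and the deposited values are log2 signals scaled to one trimmed mean of 500.0; no further step is given in the sources used here. Gene names came from the platform annotation given for the arrays. Probe sets above the 40th percentile of their array on at least 3 arrays were kept (33486 of 45101), and per gene the brightest with 1 symbol, which left 14318 genes. Limma 3.58.1 in R 4.3.3 fitted 1 mean per group to all 24 arrays (16 residual degrees of freedom, trended eBayes, Benjamini-Hochberg over all genes, threshold 0.05), and exact permutation tests compared subunits with each other. Both were tested on simulated data. The deposited values carry no detection calls, and p-values measure the spread between these samples. Members, gene lists, motifs and tests were chosen with earlier results of these data known. Named were the 8 subunit genes, up to 3 highest and 3 lowest called genes of each list in WT at 16 h, any list gene called between genotypes averaged over the times, and the 8 genes most correlated with the subunit mean; other genes named were chosen after their values were seen. Alternatives were quantile and median scaling, other filters, an offset, every probe set, replicate blocks, compared groups only, no trend, no male-type arrays, and each array left out. For the averaged genotype difference, means over the times were compared as well.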

Additional observations from a re-analysis of the deposited data

How the results depend on the processing

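All 48 rises of the subunit genes kept their direction and call under 12 other settings and when each of the 24 arrays was left out (0.48 to 1.70 on the log2 scale), and no genotype difference was called under any of them. The count between 8 and 16 h in WT, 2 genes, became 0 with quantile normalization, with arrays scaled to their medians, with only the compared groups in the fit and without the male-type arrays, and 1 with no probe set ending in _x_at, a setting chosen after seeing the data. Leaving out single arrays gave 0 to 2. In KO the count of 0 between 8 and 16 h became 1 with the filter at the 60th percentile and with every probe set on its own, and 0 to 1 with single arrays left out. The KO count of 0 between 3 and 8 h became 1 with every probe set on its own, where a dim Cct3 probe set fell, and 1 with no probe set ending in _x_at (Cct4). The cause was not tested. With the replicate number as a block, fixed or random, the count between 8 and 16 h was 4 in WT (Cct4, Cct5, Cct6a and Tcp1) and 1 in KO (Cct4), and no other count of the subunit genes changed. Arrays of one genotype with the same number correlated at 0.02 to 0.37 in their deviations from the group means (median 0.09, 16 of 36 pairs above 0.1), and those with different numbers at -0.34 to 0.10 (median -0.05). Each of the 24 arrays correlated best with its own number, a hint from the data that numbers mark shared sets; the labels do not say so, and not every pair passed 0.1, the level required here to treat numbers as pairs. The count of 14 unequal changes lay between 12 and 17 under the alternatives; Tcp1 at 3 h (-0.18, adjusted p = 0.0428) and Cct8 at 8 and 16 h (0.23 and 0.25, adjusted p = 0.04 and 0.0173) were called with quantile normalization. Scaling to array medians moved the median of all genes at 3 h in WT from -0.14 to 0.09, and the WT rises are to be read relative to that. The signal is relative to each array's total, and 3 arrays per group limit the precision.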
